A study of Mus musculus with 2 samples.

Results

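Cytochromes P450 that act on foreign chemicals, with the 2 receptors that switch many of them on, were followed in prostaspheres with and without Sox9. The 10 genes were Cyp2b9, Cyp2b10, Cyp2b13, Cyp2b19, Cyp2f2, Cyp1a1, Cyp1b1, Cyp2e1, Nr1i3 and Ahr, taken as every spot of both arrays that carries one of these gene names and is not a control. They are 10 of the 27554 genes named on the array, with 14 of its 41174 probes and 23 of its 43379 spots. They were chosen by the log2 ratios of these same 2 arrays, on which probes named for 3 Cyp2b genes were among the lowest. What follows for the 10 genes is therefore a description with no test.

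Prostaspheres are balls of prostate epithelial cells grown in Matrigel, and RNA of 4 cultures was hybridized to 2 two-color Agilent arrays on 1 slide. On the genotype array, spheres labeled Sox9 wild type and treated with TAM (Cy5) were set against ERCre+/+Sox9flox/flox spheres treated with TAM (Cy3). On the treatment array, ERCre+/+Sox9flox/flox spheres given vehicle (Cy5) were set against ERCre+/+Sox9flox/flox spheres treated with TAM (Cy3). Tamoxifen (TAM) activates the Cre recombinase of these cells, called ER-Sox9flox/flox below, so the Cy3 RNA of each array came from Sox9-deleted spheres. All cells were on a C57/Bl6J background, were grown for 6 days with dihydrotestosterone, and were then given 5 µM TAM or vehicle for 6 days. The labels take the cells from urogenital sinus epithelium at 16 days post conception, whereas the methods describe adult prostate. Whether the wild-type spheres carried the Cre is not given in the sources used here, and the vehicle-treated spheres bear the genotype label Sox9 null although TAM was not given. Every log2 ratio below is Sox9-expressing over Sox9-deleted RNA, and the arrays are given one by one and as mean ± SD (n = 2). On the treatment array the RNAs differed in TAM as well. There an effect of TAM as a drug and one of Sox9 loss cannot be told apart. The Sox9-expressing RNA was in Cy5 on both arrays, so a preference of a probe for one dye and an effect of Sox9 cannot be told apart. In whole spheres, fewer cells of a type and less RNA per cell cannot be told apart either.

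P450s are heme enzymes that put an oxygen atom into fat-soluble drugs, toxins, steroids and fatty acids, after which conjugating enzymes can attach a sugar, sulfate or glutathione for excretion. The Cyp2b enzymes of the mouse are best known from liver, where phenobarbital and related drugs induce them through the receptor CAR, the product of Nr1i3. The aryl hydrocarbon receptor, encoded by Ahr, senses planar aromatic compounds and switches on Cyp1a1 and Cyp1b1. Tamoxifen is itself a substrate of P450s.

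Mouse Cyp2b genes are close copies of each other, so which transcript a spot reads depends on its 60-base probe. The array annotation, which lists at most 4 accessions for a probe, ties the Cyp2b13 probe that was above background to RefSeq transcripts of 4 genes, Cyp2b13, Cyp2b9, Cyp2b10 and Cyp2b23. Its match in the mouse genome (build mm9) runs over chr7:26873757-26880713, so it crosses an exon boundary. The Cyp2b10 probe (chr7:26702056-26702115) is tied to RefSeq transcripts of Cyp2b10 alone. One of 2 Cyp2b9 probes (chr7:26983484-26983543) is tied to Cyp2b9 alone, and the Cyp2b23 probe (chr7:27460121-27460180) to Cyp2b23 alone. These 4 probes are shown because they decide which gene the signal can be given to:
shared probe named Cyp2b13: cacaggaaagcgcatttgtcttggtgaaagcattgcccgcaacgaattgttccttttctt
Cyp2b10: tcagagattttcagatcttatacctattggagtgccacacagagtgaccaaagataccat
Cyp2b9: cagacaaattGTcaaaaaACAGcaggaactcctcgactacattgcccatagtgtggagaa
Cyp2b23: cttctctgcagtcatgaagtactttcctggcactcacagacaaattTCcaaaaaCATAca
The last 24 bases of the Cyp2b23 probe line up with the first 24 of the Cyp2b9 probe, with 18 identical and the 6 that differ in capitals. With the Cyp2b23 base first and positions counted from the first of the 24, they are T11G, C12T, C19A, A20C, T21A and A22G.

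The Cyp2b signal was lower with Sox9 than without it on both arrays. On the Cyp2b10 probe the normalized brightness was 165 in wild-type spheres with TAM and 308 in ER-Sox9flox/flox spheres with vehicle. In the Sox9-deleted spheres it was 907 on the genotype array and 759 on the treatment array. Both Sox9-expressing RNAs thus lay below both Sox9-deleted RNAs, with the vehicle-treated spheres between the wild-type spheres and the deleted ones. The log2 ratio was -2.46 on the genotype array and -1.30 on the treatment array, a mean of -1.88 ± 0.82 (SD, n = 2), or 5.50-fold and 2.47-fold lower. Cyp2b10 is the phenobarbital-inducible enzyme by which CAR activity is usually read in mouse liver.

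The shared probe named Cyp2b13 read 208 in wild-type spheres with TAM, 412 with vehicle, and 1343 and 1139 in the deleted spheres. Its log2 ratios were -2.69 and -1.47, a mean of -2.08 ± 0.87. A Cyp2b9 probe (chr7:26995607-26995666) that the annotation ties to Cyp2b9 and Cyp2b10 read 133, 151, 393 and 347 in the same order, with log2 ratios of -1.57 and -1.20 and a mean of -1.38 ± 0.26. All 3 probes were well above background in all 4 RNAs, by the mark of the scanner software. All 3 had negative log2 ratios on both arrays, which 33.7% of all tested genes had. Of the 15063 genes tested, 24 (0.159%) were at least 2-fold lower on both arrays, and Cyp2b9, Cyp2b10 and Cyp2b13 were 3 of them, by the choice of these genes. Among 22731 tested probes ordered from the lowest mean log2 ratio, Cyp2b13 was at place 8, Cyp2b10 at 11 and Cyp2b9 at 19.

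Probes tied to a single other copy were dim. The Cyp2b13 probe that the annotation ties to Cyp2b13 alone (chr7:26880905-26880964) was not well above background in any of the 4 RNAs, with a brightness of 89.1, 86.0, 90.8 and 91.0 in the order used above. Negative control spots had medians of 86.5 to 88.7. The Cyp2b23 probe printed above was likewise not well above background in any RNA, at 90.5, 85.2, 93.3 and 91.7. The Cyp2b9 probe printed above was well above background in both Sox9-deleted RNAs, at 113 and 113, and in neither Sox9-expressing RNA, at 97.8 and 88.2. Its measured mean was 1.22-fold lower with Sox9 (log2 ratios -0.21 and -0.36), a value near background. This probe passed the filter on dim spots only through the deleted spheres. From the processed signals of the scanner software, which have the background subtracted, its log2 ratios were -2.90 and -2.27. How much each copy added to the shared probes cannot be told apart.

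A further probe for Cyp2b10, which the array names by an Ensembl transcript and which therefore lies outside the 10 gene names, was found among the neighbors after its values were seen. It matches chr7:26702417-26711087 (mm9) and is described by the annotation as Cyp2b10. Its brightness was 117 in wild-type spheres with TAM and 112 with vehicle, against 224 and 207 in the deleted spheres. Its log2 ratios were -0.93 and -0.89, so both probes of Cyp2b10 were lower with Sox9. The distance between them depended on the processing. From the processed signals of the scanner software this probe had -3.40 and -1.91, against -4.07 and -1.59 on the Cyp2b10 probe printed above.

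**Figure D1:**
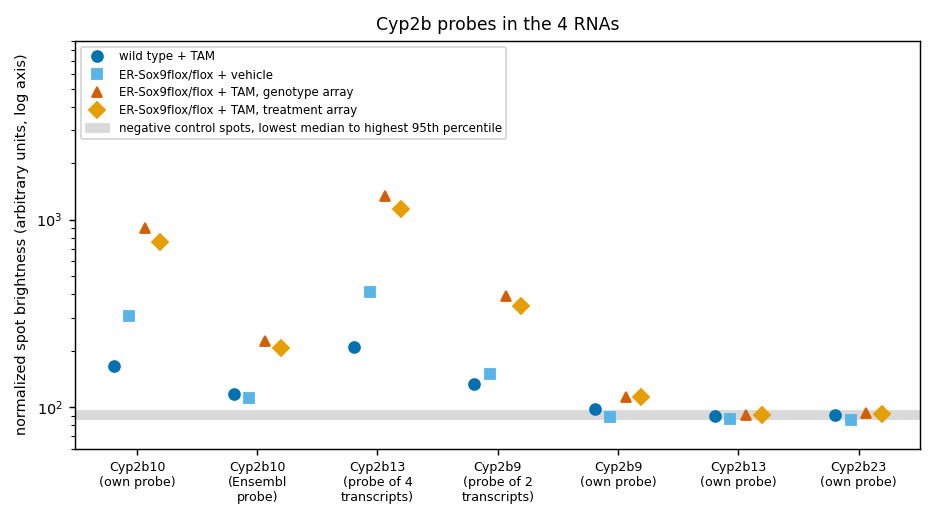
Normalized brightness (arbitrary units, log axis) of 7 Cyp2b probes in the 4 RNAs, 1 point for each RNA, with the range of negative control spots in gray. On the first 4 probes both Sox9-expressing RNAs (blue) lie below both Sox9-deleted RNAs (orange), as with 165 and 308 against 907 and 759 on the Cyp2b10 probe, while the own probes of Cyp2b13 and Cyp2b23 stay within 85.2 to 93.3.

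The Cyp2b genes lie in a run of P450 genes on chromosome 7. Between the probes of Cyp2b10 and Cyp2f2 (chr7:26702056-27918629, mm9) the array has 20 named genes or transcripts, of which 11 carry a P450 symbol. Only 7 of the 20 were tested, and 3 were at least 2-fold lower on both arrays, the Cyp2b9, Cyp2b10 and Cyp2b13 already given. Of the other 4, the Ensembl-named Cyp2b10 probe is given above and Cyp2f2 below. The transcript BC026762, between Cyp2b10 and Cyp2b13, had log2 ratios of -0.84 and -0.90. A transcript fragment described as testosterone 16a-hydroxylase had -0.26 and -0.12. Cyp2a4, Cyp2a5, Cyp2a12, Cyp2a22 and Cyp2g1, which lie between Cyp2b9 and Cyp2f2, were not well above background. Neither was Cyp2b19, a keratinocyte enzyme that oxidizes arachidonic acid, whose 2 probes read 87.0 to 99.1 over the 4 RNAs. Of 13 keratinocyte differentiation markers on the array 9 were tested, and 6 of these had positive log2 ratios on both arrays, which 33.8% of all tested genes had. Only 1, Ivl, had negative ones on both (-2.52 and -0.91), which 33.7% of all tested genes had.

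The sequences just before the start of Cyp2b10, Cyp2b13 and Cyp2b9 are shown because the probes read for these genes moved together on the arrays. The probes read for Cyp2b13 and Cyp2b9 are shared with other copies, so a change of each gene is not shown. Each sequence is 250 bases, from RefSeq (GRCm38.p6, plus strand), at chr7:25897408-25897657 for Cyp2b10, chr7:26061245-26061494 for Cyp2b13 and chr7:26173159-26173408 for Cyp2b9. Capitals mark AGGTCA, the half-site bound by nuclear receptors such as CAR, and GCGTG, the core of the element bound by AHR, on either strand:
Cyp2b10: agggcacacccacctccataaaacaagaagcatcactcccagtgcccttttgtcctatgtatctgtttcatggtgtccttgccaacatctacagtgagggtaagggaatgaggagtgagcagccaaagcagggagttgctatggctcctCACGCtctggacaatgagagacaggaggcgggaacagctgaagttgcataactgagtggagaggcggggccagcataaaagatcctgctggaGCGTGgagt
Cyp2b13: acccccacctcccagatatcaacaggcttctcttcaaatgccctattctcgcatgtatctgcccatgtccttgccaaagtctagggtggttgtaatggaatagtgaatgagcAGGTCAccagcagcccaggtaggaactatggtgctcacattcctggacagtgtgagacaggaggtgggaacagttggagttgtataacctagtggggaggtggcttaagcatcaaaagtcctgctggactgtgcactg
Cyp2b9: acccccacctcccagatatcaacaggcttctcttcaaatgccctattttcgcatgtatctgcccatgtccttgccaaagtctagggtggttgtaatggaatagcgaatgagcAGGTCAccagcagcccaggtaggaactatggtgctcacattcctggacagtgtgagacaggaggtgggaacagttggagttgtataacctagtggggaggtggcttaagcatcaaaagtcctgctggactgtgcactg
The Cyp2b13 and Cyp2b9 sequences were identical at 248 of 250 bases, and differed at C48T and T104C (Cyp2b13 base first, counted from the 5′ end of the printed sequence). Cyp2b10 was identical to either at 186 of 262 aligned positions. AGGTCA begins 138 bases before the start of Cyp2b13 and Cyp2b9, and Cyp2b10 has 2 matches to GCGTG, the first on the opposite strand. Of the 10 genes 9 had a promoter in the table. AGGTCA was found in 4 of these 9 (Cyp2b9, Cyp2b13, Cyp2b19 and Cyp2f2) and in 14.0% of 32851 promoters, GCGTG in 3 of 9 (Cyp2b10, Cyp1a1 and Cyp1b1) and in 28.2%. AACAAT, a core bound by SOX proteins, was found in 2 of 9 (Cyp1b1 and Nr1i3) and in 9.42%. The searched letters do not overlap each other in these promoters. The enhancer through which phenobarbital acts on Cyp2b10 is known to lie farther upstream than this window.

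Cyp2f2, an enzyme known from the club cells of the airway, where it activates naphthalene, differed on the treatment array alone. Its brightness (chr7:27918570-27918629) was 4221 in wild-type spheres with TAM, 12370 in ER-Sox9flox/flox spheres with vehicle, and 4114 and 3931 in the deleted spheres. The culture without TAM stood apart and the 3 cultures with TAM lay close together. The log2 ratio was 0.04 on the genotype array and 1.65 on the treatment array, where Cyp2f2 was 3.15-fold higher with vehicle. On the treatment array 308 of 22731 probes (1.35%) were at least 2-fold higher. The difference between the arrays was not tested, since each comparison has 1 array.

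Markers of other cells moved on the treatment array as well. Of 10 stromal markers, all tested, 9 were lower with Sox9 on the genotype array and higher on the treatment array, as were 18.4% of all tested genes. Their summed brightness was 42170 in wild-type spheres, 106000 with vehicle, and 71700 and 67470 in the deleted spheres, so the stromal sum was also highest with vehicle. Unlike Cyp2f2, the stromal sum was lower in wild-type spheres than in the deleted ones. Of 9 club cell markers on the array 5 were tested, of which 2 had positive and 1 negative log2 ratios on both arrays. They ran from Scgb3a2 (-0.01 and -0.20) and Foxj1 (0.02 and -0.17) over Gabrp (-0.52 and 0.83) and Sftpd (0.11 and 0.71) to Aldh1a1 (0.10 and 1.49). Scgb1a1, Scgb3a1, Sftpb and Nkx2-1 were not well above background. The part of stromal or other cells in the Cyp2f2 values was not tested.

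Ahr was higher with Sox9 on both arrays. Its probe (chr12:36182924-36182983, minus strand), spotted 10 times on each array, read 2009 in wild-type spheres with TAM, 1929 with vehicle, and 1015 and 954 in the deleted spheres. The values of the 2 Sox9-expressing RNAs lay close together, as did those of the 2 deleted ones. Of all tested genes 33.8% were higher on both arrays. The log2 ratios were 0.99 and 1.02, a mean of 1.00 ± 0.02 (SD, n = 2), or 1.98-fold and 2.02-fold higher. Between the 10 spots the SD was 0.0316 and 0.0341. The genotype array leaves Ahr just short of 2-fold, so it is not among the 57 genes (0.378%) at least 2-fold higher on both arrays. With normexp and an offset of 10 the log2 ratios were 1.01 and 1.03.

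Cyp1b1, a hormone- and carcinogen-metabolizing target of AHR that many epithelia express, read 927 in wild-type spheres with TAM and 947 with vehicle (chr17:80106547-80106606, minus strand). In the deleted spheres it read 685 and 704. The groups lay closer to each other than for Ahr, with log2 ratios of 0.44 and 0.43 and a mean of 0.43 ± 0.01, or 1.35-fold and 1.34-fold higher. A second Cyp1b1 probe, for which the annotation lists no RefSeq transcript, was not well above background in any RNA.

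Cyp1a1, the most widely used readout of AHR activity, was not well above background in any RNA, with 91.3, 90.5, 87.3 and 88.6. Cyp2e1, which oxidizes ethanol, read 87.3, 95.4, 90.3 and 91.1. Nr1i3 read 84.8 in wild-type spheres, 89.3 with vehicle, and 88.6 and 100.6 in the deleted spheres. All 3 were within or near the range of negative control spots, whose 95th percentiles were 91.4 to 95.6, so neither a level nor a difference could be read for Cyp1a1, Cyp2e1 and Nr1i3. Of 10 genes, then, 6 had a probe that passed the filter and 4 did not, counting Cyp2b19.

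**Figure D2:**
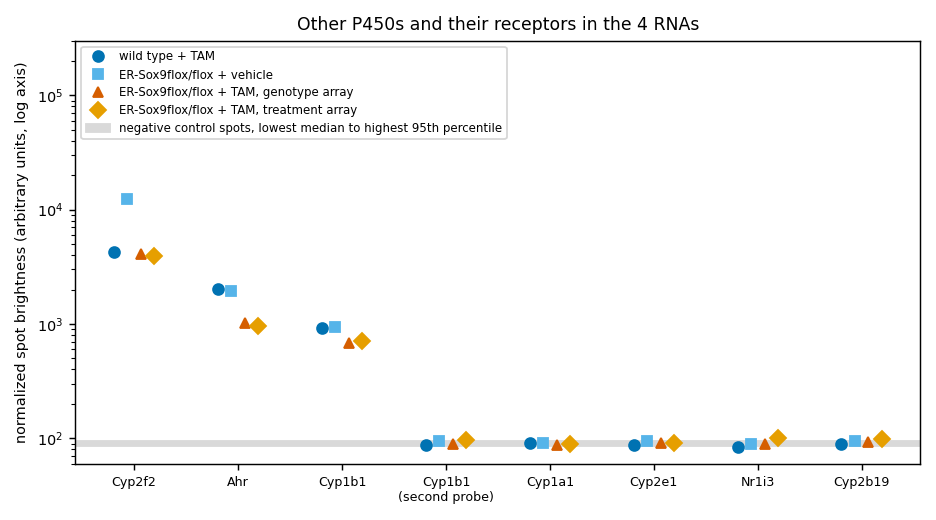
Normalized brightness (arbitrary units, log axis) of the remaining genes in the 4 RNAs, 1 point for each RNA, with the range of negative control spots in gray. Cyp2f2 stands apart in the vehicle-treated spheres alone (12370), Ahr and Cyp1b1 are higher in both Sox9-expressing RNAs, and the other 5 probes lie at background.

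The rest of the pathway was followed with lists of genes. Of 18 tested CAR and PXR targets, 9 had negative log2 ratios on both arrays and 2 had positive ones, shares to be read against 33.7% and 33.8% of all genes tested. The median of their mean log2 ratios was -0.10, and 0.00 over all genes. The 4 gene names that were at least 2-fold lower on both arrays were Cyp2b9, Cyp2b10 and Cyp2b13, of which Cyp2b10 alone rests on a probe tied to 1 gene, and Cyp3a13, a drug- and steroid-oxidizing P450 with log2 ratios of -1.28 and -1.26. The count of 4 fell to 0 with median centring, where Cyp3a13 had -0.86 on the treatment array. It fell to 1 with the arrays scaled to 1 spread, where Cyp3a13 had -0.92. Median centring left the tested probes of the treatment array at a median log2 ratio of 0.38. Without the Cyp2b genes, 6 of 15 were negative and 2 positive on both. The highest was Ugt2b34, a glucuronosyltransferase, with 0.32 and 1.86. CYP3A and CYP2C genes that mark PXR and CAR in liver, Cyp3a11, Cyp2c29, Cyp2c37 and Cyp2c55 among them, were not well above background, nor was Nr1i2, which encodes PXR. The transporter Abcc3, a further target, had -0.86 and -0.36.

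Genes of the AHR battery had values on both sides of 0. Of 7 tested genes 2 were positive and 4 negative on both arrays, beside 33.8% and 33.7% of all genes tested, with a median of -0.07. Without Cyp1b1, which is among the chosen genes, 1 of 6 was positive and 4 were negative on both, with a median of -0.18. Ugt1a6b, a phenol glucuronosyltransferase, was highest at 0.96 and 0.90, followed by Cyp1b1. Gsta1, a glutathione transferase, was lowest at -1.25 and -0.94. Of the 7 genes 0 were past 2-fold on both arrays, and 1 was in 5 of the 6 other ways of processing the spots, among them Gsta1 with an offset of 10 (-1.51 and -1.20) and Ugt1a6b with median centring (1.04 and 1.51). Tiparp, a direct AHR target, had -0.23 and -0.35, and Nqo1, a quinone reductase, -0.61 and -0.03. With median centring in place of loess, the treatment log2 ratios of Tiparp and Nqo1 turned to 0.20 and 0.38. The median over all tested probes of that array was then 0.38.

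**Figure D3:**
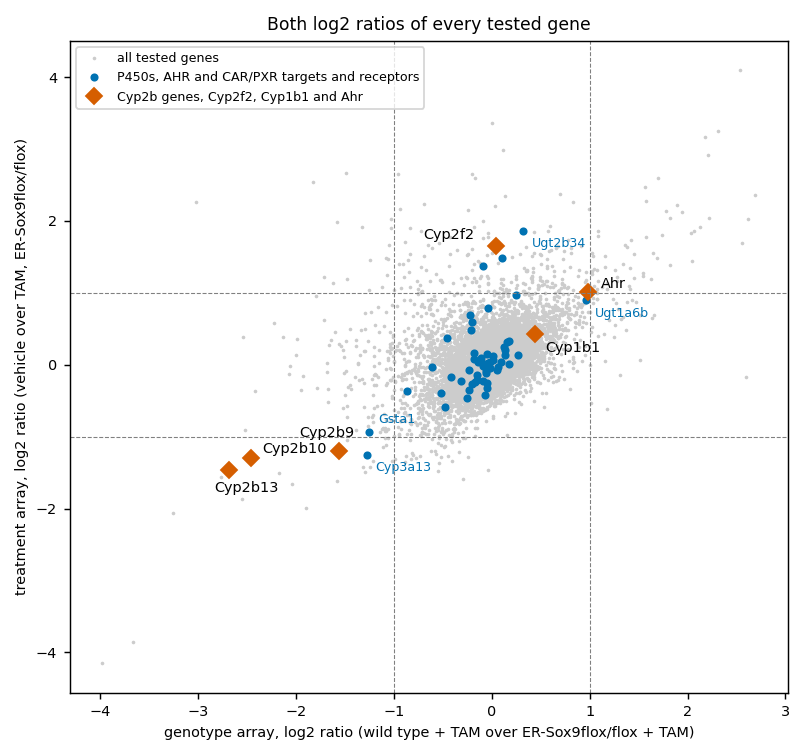
Log2 ratios of every tested gene on the genotype array (horizontal) and the treatment array (vertical), with P450s, AHR and CAR/PXR targets and receptors in blue, the 6 genes described here in orange, and dashed lines at 2-fold. The 3 points named for Cyp2b genes lie at the low end on both axes, those of Cyp2b13 and Cyp2b9 from probes shared with other copies. Ahr lies at about 1 on both, and Cyp2f2 at 0.04 and 1.65.

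Among 16 tested receptors and their partners, 8 were higher and 5 lower on both arrays, beside 33.8% and 33.7% of all tested genes. These counts turned with the processing, to 11 and 1 with median centring and to 6 and 7 both without background subtraction and from the processed signals. Ahr, which is among the chosen genes and is counted with the higher ones, had the highest mean log2 ratio of the 16. Hsp90aa1, a chaperone of the receptor, was lowest at -0.07 and -0.43, values that median centring turned to 0.13 and 0.38. The median over all tested probes of the treatment array was then 0.38. Arnt, which pairs with AHR, had 0.26 and 0.14, and Rxra, which pairs with CAR, 0.14 and 0.21. Of 8 tested redox partners 3 were higher and 3 lower on both arrays, beside the same shares of all tested genes. The counts were 5 and 0 with median centring. Por, the reductase that passes electrons to these P450s, was lowest at -0.52 and -0.40, though 0.27 on the treatment array with median centring. Fdxr, its mitochondrial counterpart, was highest at 0.13 and 0.27.

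Of 23 other tested P450s of families 1 to 4, 11 were lower and 4 higher on both arrays, beside 33.7% and 33.8% of all tested genes. They ran from Cyp3a13 to Cyp4f39, a skin lipid hydroxylase, at 0.25 and 0.97. The same shares of all tested genes stand beside the lower and higher counts in the rest of this paragraph. Of 9 tested P450s of sterol, steroid, vitamin and fatty acid metabolism 5 were lower and 3 higher. These ranged from Cyp26b1, which breaks down retinoic acid, at -0.53 and -0.51, to Cyp27a1, a sterol hydroxylase, at 0.26 and 0.29. Of 32 tested conjugation enzymes 10 were negative and 7 positive on both arrays, and the other 15 were lower on the genotype array and higher on the treatment array, which 18.4% of all tested genes were. With median centring 6 were negative and 8 positive on both. Ugt2b34 was the highest and Gsta1 the lowest of them. Of 8 tested tamoxifen and estrogen response genes 2 had negative and 2 positive log2 ratios on both, from Ctsd (-0.42 and -0.65) to Esr1 (0.11 and 0.65). With median centring, Ctsd turned to 0.21 on the treatment array, beside a median of 0.38 over all tested probes.

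Over the 102 tested genes of these lists that are not among the 10 chosen genes, limma called 0 at an adjusted p under 0.05. At an unadjusted p under 0.05 it called 24, and 19.5% of all tested genes. The methods' t-test, unadjusted, gave 8, and 8.77% of all tested genes. Over all genes limma called 2 (0.0133%), Prl2c3 and Prl2c5 of the prolactin family, and neither belongs to a list.

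**Figure D4:**
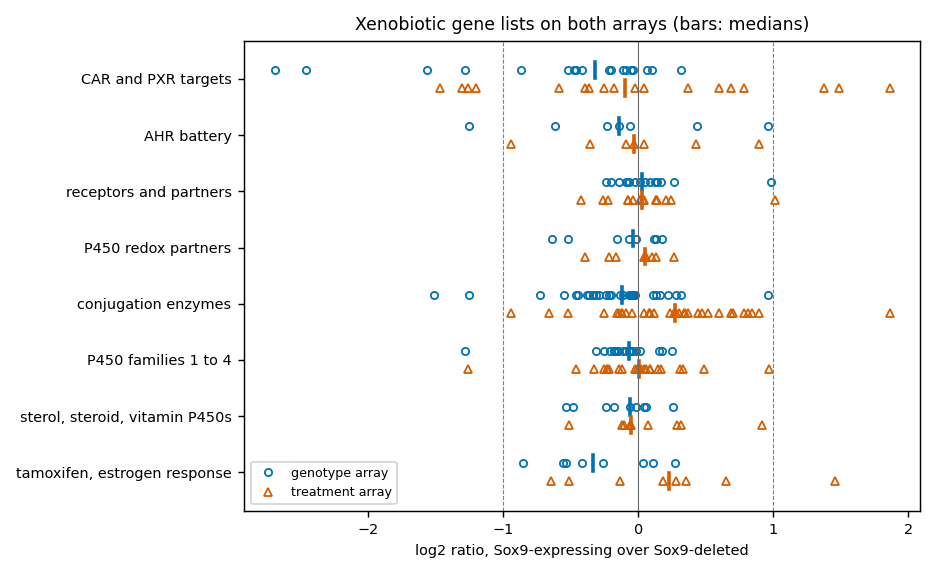
Log2 ratios of the tested genes of 8 xenobiotic gene lists, 1 symbol for each gene and array, with thick bars at the medians and dashed lines at 2-fold. At the far left of the CAR and PXR targets are Cyp2b13 and Cyp2b9, both read from shared probes, Cyp2b10 and Cyp3a13. Ahr is at the right end of the receptors.

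The 5 genes whose pair of log2 ratios was nearest to the mean of Cyp2b9, Cyp2b10 and Cyp2b13 (-2.24 and -1.32) were, by Euclidean distance over the 2 arrays, 2310043J07Rik at a distance of 0.195, Slpi at 0.387, Ivl at 0.504, Krt23 at 0.581 and Saa3 at 0.631. Slpi is a secreted protease inhibitor, Ivl a protein of the cornified envelope, Krt23 a keratin and Saa3 an acute-phase protein. Genes at the low end are few, so a short distance there describes rank more than likeness.

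The labels and the makeup of the spheres were checked beside these results. Sox9 itself had 3 probes. The brightest had log2 ratios of 2.69 and 2.37 and another 1.18 and 1.27. The most distal one was lower with Sox9 on both arrays, at -0.997 and -1.22. It was well above background in 1 of the 2 Sox9-expressing RNAs. All 3 were well above background in both deleted RNAs, where the brightest read 253 and 232, against 1634 and 1198 with Sox9. Of 11 basal markers 10 had positive log2 ratios on both arrays, which 33.8% of all tested genes had. Their summed brightness was 398100 and 340600 against 136300 and 135600 in the deleted spheres. Of 9 tested luminal markers 5 were lower and 2 higher on both arrays (3 and 4 with median centring), beside 33.7% and 33.8% of all tested genes. Their sums were 218000 and 191000 against 241700 and 284300. The Cyp2b probes past 2-fold, Ahr and Cyp1b1 moved along with this change in markers, and its part in their values was not tested. Of 11 liver markers on the array 1 was tested (Tat), and Alb, Ttr and Apoa1 were not well above background. Of 9 immune markers 3 were tested and 2 were lower with Sox9 on both arrays, as were 33.7% of all tested genes. Ptprc was not well above background.

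How the spots were processed changed the size of the Cyp2b values more than their direction. The 3 Cyp2b probes past 2-fold on both arrays stayed negative on both under the 6 other ways of processing the same spots. So did the Ensembl-named Cyp2b10 probe and the probe tied to Cyp2b9 alone. On the treatment array, median centring gave -0.82 for Cyp2b10, -0.95 for Cyp2b13 and -0.85 for Cyp2b9, none of them past 2-fold. The median over all tested probes of that array was then 0.38. With the arrays scaled to 1 spread, the treatment array gave -0.96 for Cyp2b10 and -0.88 for Cyp2b9, both inside 2-fold, and -1.08 for Cyp2b13. The scanner software's processed signals gave -4.07 and -1.59 for Cyp2b10. Ahr lay between 0.99 and 1.34 on the genotype array and between 0.75 and 1.58 on the treatment array.

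**Figure D5:**
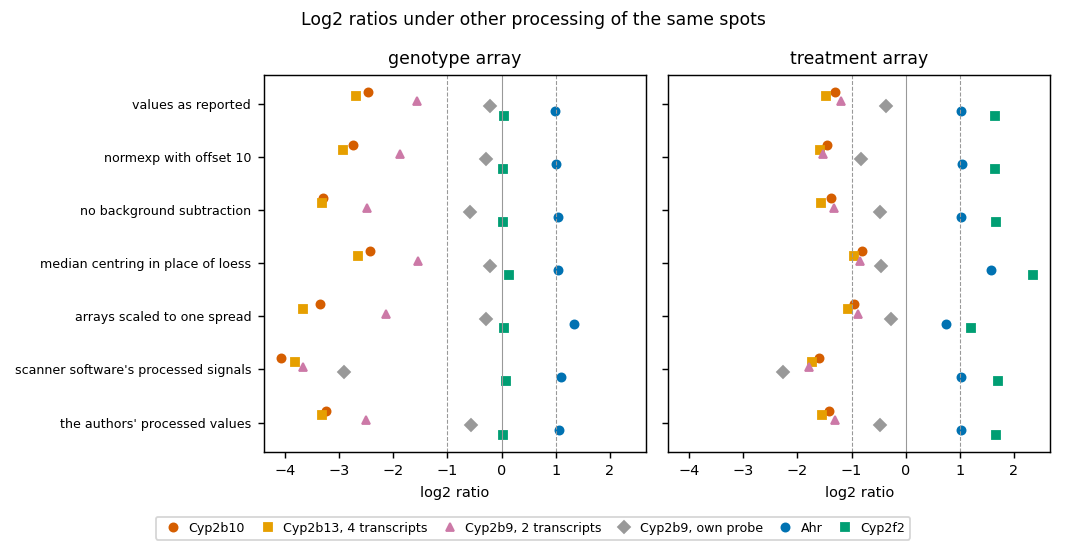
Log2 ratios of 6 probes on each array (horizontal axes) as reported and under 6 other ways of processing the same spots (rows), with dashed lines at 2-fold. The Cyp2b probes stay left of 0 in every row. On the treatment array median centring moves the 3 reported past 2-fold inside it, and Cyp2f2 to 2.35. Scaling the arrays to 1 spread moves Cyp2b10 and the Cyp2b9 probe of 2 transcripts inside 2-fold there.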

How the data were processed

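RNA of 4 cultures was measured on 2 arrays, each taken as 1 replicate of Sox9-expressing over Sox9-deleted RNA. RNAs were assigned from titles, genotypes, treatments and dyes. Source names read SOX9 for Cy5 and Ctrl for Cy3 and were left aside. The authors deposited spot intensities and local backgrounds from Agilent Feature Extraction 10.5.1.1, the software's processed intensities, and a table of processed log2 ratios whose making is not given in the sources used here beyond limma in the submitters' processing notes. Per the file headers, probe positions are on mm9.

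From the mean intensities, background was corrected with normexp and an offset of 50 in limma 3.58.1 (R 4.3.3), which understates log2 ratios of dim probes. Loess was run within each array, with control spots at weight 0. Outlier spots (126 and 130) were left out, spots of a probe averaged, and probes kept where well above background in Cy5 on both arrays or Cy3 on both. Each mean over arrays was compared with 0 by lmFit and eBayes (2-sided, Benjamini-Hochberg over the tested probes). The brightest probe stood for a gene. Brightness per RNA is on the scale after loess and Aquantile. Between 53.9% and 56.2% of probes were well above background in an RNA, and 0 spots were saturated. Precision is limited by the number of arrays.

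The members and gene lists were chosen with earlier results of these data known. Named are all members, list genes past 2-fold on both arrays, the highest and lowest of each list, and the 5 nearest genes, and beside these Arnt, Rxra, Tiparp, Nqo1, Abcc3, the club cell markers and the neighbors on chromosome 7, which were added after their values were seen. The labels name no separate cultures beyond the 4 RNAs, so p-values measure only the spread between these 2 arrays. Scripts were checked on simulated data. Sequences and figures used Python 3.11.15, pandas 2.3.3, Biopython 1.88 and matplotlib 3.10.9.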

Additional observations from a re-analysis of the deposited data

How the results depend on the processing

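The mean log2 ratio of Cyp2b9, Cyp2b10 and Cyp2b13 was -1.78. It was -2.78 on the scanner software's processed signals, and between -2.24 and -1.32 with 1 array left out. The number of these 3 genes at least 2-fold lower on both arrays was 0 under median centring, 1 once both arrays had been scaled to a common spread, 2 when the probes of each gene were averaged, where Cyp2b9 moved from -1.38 to -0.83, and 3 with either array alone. In each other alternative the mean moved by less than the spread between arrays. Over all probes, limma called 2, and 0 with an offset of 10, without background subtraction, with the arrays scaled to 1 spread and on the processed signals. It called 522 with median centring and 68 on the authors' values, and the methods' t-test called 0. At least 2-fold in the same direction on both arrays were 95 probes, 148 without background subtraction, 600 on the processed signals and 147 on the authors' values, with 298 to 382 on 1 array alone. The lower ones among them were 29, and 51, 310 and 49 in the same order, 10 with median centring, 16 with the arrays scaled to 1 spread, and 74 to 191 on 1 array alone. The share of higher among these calls was 69.5%, against 91.8% with median centring and 48.3% on the processed signals. Median centring left a median log2 ratio of 0.38 over the tested probes of the treatment array. The cause of these changes was not tested. No paired analysis was possible because each array is 1 sample with both RNAs on it.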
